A study of Schizosaccharomyces pombe with 4 samples.

Results

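The genes described here are the 9 fission yeast genes for telomere protection and telomerase named taz1, rap1, poz1, tpz1, pot1, ccq1, rif1, trt1 and est1. They were chosen by their symbol in the deposited expression table and are 9 of its 7092 genes. All 9 symbols were found once, and the protein names beside them in the table are those of telomere or telomerase proteins, except that rap1 is entered as a DNA-binding protein and ccq1 as a coiled-coil protein. All 9 passed the filter on low values (status OK and an average of the groups of 1 FPKM or more), as did 6219 genes in all.

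Poly(A) RNA of Schizosaccharomyces pombe was sequenced in 2 groups of 2 libraries. Both groups carry, per the labels, the genotype h90 ade6leu1 ura4 pcr1::ura4+, in which the bZIP factor gene pcr1 is replaced by the ura4+ marker in homothallic cells. The control group carries the empty plasmid pREP41 and the other carries pREP41-Atf1, whose insert is the stress-response factor Atf1, the usual partner of Pcr1. The plasmid's nmt1 promoter is shut by thiamine, and cells were grown at 30 °C with 20 µM thiamine overnight and then for 24 h without it. By its title the series asks what Atf1 over-expression does to expression when Pcr1 is missing.

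The values are FPKM, fragment counts scaled to transcript length and sequencing depth, and each gene has a single value for each group, pooled over its 2 libraries. No spread between libraries, SD or n can therefore be given for any value, and the depth is unknown. The labels do not say that the libraries came from separate cultures, so any p measures a spread that may be technical. A call rests on the q-value that the authors deposited, with q under 0.05 as the threshold. Differences are log2(FPKM + 1), Atf1 label minus vector label. The added 1 shrinks the differences of genes at low levels. In pairs of values the Atf1 label comes first and the vector label second, unless the sentence says otherwise. The RNA is of whole cultures, so fewer cells with a transcript and less of it per cell cannot be told apart. FPKM is scaled to length, so levels of different genes are compared on it below.

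The genes of the genotype went against the labels. In the authors' deposited table atf1 was at 54.4 and 60.9 FPKM (q = 0.997), and pcr1, deleted per the labels, was at 66.4 and 35.8 (q = 0.774). The marker ura4 was at 125 FPKM with the vector label and listed at 0 with the other. Every direction below is therefore one between labels, with the genotype itself in doubt. FPKM summed to 1321550 and 835070, and the median difference was -0.11 over 6219 tested genes and -0.22 over 4965 protein-coding ones. Structural RNAs (rRNA, snoRNA, snRNA, tRNA and RNase P RNA) had a median difference of 2.72 over 49 genes, 46 of them above 0, and their part in the values below was not tested.

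Shelterin is the protein complex that covers chromosome ends and keeps them from being repaired as breaks. In fission yeast Taz1 binds the duplex telomere repeats and Pot1 the single-stranded overhang, and Rap1, Poz1 and Tpz1 form the bridge between them. Ccq1 sits on Tpz1 and, once phosphorylated, binds Est1 and so brings in telomerase, whose catalytic subunit is Trt1 and whose RNA, ter1, holds the template for the repeats. Rif1 is held at telomeres through Taz1, limits telomere length and, elsewhere in the genome, times replication origins through protein phosphatase 1.

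Of the 9 genes, 7 were lower with the Atf1 label and 2, taz1 and pot1, were higher, and the authors' deposited table calls 0 of 9. It calls 1.95% of all tested genes, 1.82% higher and 0.129% lower with the Atf1 label. At an unadjusted p under 0.05 there was 1 of the 9, trt1, which was lower, against 10.8% of tested genes in either direction and 4.04% lower. The median difference of the 9 genes was -1.02, beside the -0.11 of all tested genes. By value alone, 5 of the 9 were at least 2-fold lower with the Atf1 label, against 16.6% of tested genes, and 7 had a difference below 0, against 55.4%. All 9 are protein-coding. Of the tested protein-coding genes 1.79% were called, 1.71% higher and 0.0806% lower, and 11.1% had an unadjusted p under 0.05, 4.83% of all in the lower direction. At least 2-fold lower were 17.3% of them, and 60.1% had a difference below 0.

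Protein-coding genes at similar levels also tended to lower values with the Atf1 label. The means of the 9 genes over both groups ran from 5.29 to 15.6 FPKM. Among the 1405 protein-coding genes in that range, 76.8% had a difference below 0, the median was -0.53, and 26.9% were at least 2-fold lower. The 77.8% of telomere genes below 0 is thus close to that of protein-coding genes at similar levels, while their median of -1.02 and their 55.6% at least 2-fold lower were further from 0 and more frequent. That comparison was added after the data were seen and is a description, not a test. Within the range the genes were not matched to the 9 by level. Of the 9, taz1 (15.6 FPKM) and pot1 (14.4 FPKM) had the highest means and were the only ones above 0, with poz1 next at 11.8 FPKM.

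**Figure D1:**
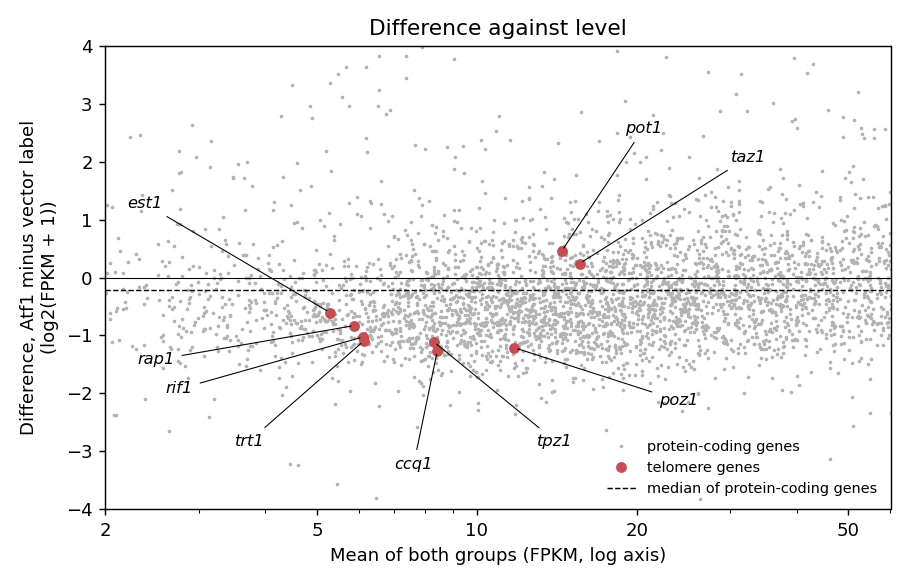
Difference between the groups (Atf1 minus vector label, log2(FPKM + 1)) against the mean of both groups (FPKM, log axis) for protein-coding genes (grey) and the 9 telomere genes (red). The axes show means of 2 to 60 FPKM and differences of -4 to 4, which hold 3606 of 4965 genes, and of the 9 only pot1 and taz1 lie above the dashed line at the protein-coding median, -0.22.

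The duplex repeat binder taz1 (SPAC16A10.07c, chromosome I 3091021-3095062) was at 17.0 and 14.2 FPKM. It was the highest of the 9 genes with the Atf1 label and second to poz1 with the vector label. Its difference of 0.24 was not called (q = 0.997, the authors' deposited table), and 69.7% of tested protein-coding genes had a lower difference. The locus given is that of Cuffdiff in the authors' build ASM294v2, which here spans 3 genes, and values from loci with several genes are uncertain. The others in it are mug74, at 1.85 and 5.02 FPKM, and the antisense RNA mug74-antisense-1, at 1.51 and 1.75 FPKM. In the later annotation ASM294v3 no other gene of the table overlaps taz1 itself.

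Of the bridge genes, rap1 (SPBC1778.02, chromosome II 3098295-3102688) was at 3.96 and 7.81 FPKM. Its product binds Taz1 and helps to limit telomere length. The difference of -0.83 was not called (q = 0.997 in the authors' deposited table). The locus also holds SPBC1778.03c, at 19.6 and 15.9 FPKM, which overlaps 2.31% of rap1 in ASM294v3.

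The next bridge gene, poz1 (SPAC19G12.13c, chromosome I 4068498-4070968), was at 6.70 and 16.8 FPKM, 2.51-fold lower with the Atf1 label. It was the highest of the 9 with the vector label and the third with the Atf1 label. The difference of -1.21 was not called (p = 0.0784, q = 0.802 in the authors' deposited table). Poz1 links Rap1 to Tpz1. The gene dlp1 overlaps 57.1% of poz1 in ASM294v3 and was at 17.2 and 11.6 FPKM, a difference of 0.53 in the other direction.

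The central subunit gene tpz1 (SPAC6F6.16c, chromosome I 2761907-2765950) was at 4.89 and 11.7 FPKM. Tpz1 holds Pot1, Poz1 and Ccq1 together. The level was 2.40-fold lower with the Atf1 label, a difference of -1.11 that was not called (p = 0.637, q = 0.997 in the authors' deposited table). The small GTPase gene ypt5 overlaps 32.9% of tpz1 in ASM294v3 and was far higher, at 201 and 156 FPKM, so the level of tpz1 is uncertain.

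The overhang binder pot1 (SPAC26H5.06, chromosome I 4125000-4133498) was at 16.9 and 12.02 FPKM, a difference of 0.46 that was not called (q = 0.997 in the authors' deposited table). Among the 9 it was the second highest with the Atf1 label and the fourth with the vector label. Other genes of the table overlap 48.5% of pot1 in ASM294v3. The largest of these in level is SPAC26H5.07c on the other strand, at 127 and 131 FPKM, so the values of pot1 are uncertain. With FPKM totals made equal, taz1 and pot1 turned to -0.38 and -0.16. That scaling took the median of all tested genes to -0.73, so both stayed above it.

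The recruiter of telomerase, ccq1 (SPCC188.07, chromosome III 1486077-1492475), was at 4.55 and 12.3 FPKM. The level was 2.71-fold lower with the Atf1 label, the largest difference of the 9 genes, -1.26, which was not called (p = 0.110, q = 0.900 in the authors' deposited table). Only 6.34% of tested protein-coding genes had a lower difference. The ubiquitin protease gene ubp5, in the same locus, was at 7.10 and 11.2 FPKM and overlaps 4.96% of ccq1 in ASM294v3.

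Ratios of levels within a group do not depend on how the groups were scaled to each other. The shelterin genes spanned a 4.29-fold range with the Atf1 label and a 2.15-fold range with the vector label. The ratio of pot1 to tpz1, whose products bind directly, was 3.45 and 1.03. The ratio of taz1 to rap1 was 4.29 and 1.82. Among the bridge genes and ccq1 the ratios moved less. The ratio of poz1 to tpz1 was 1.37 and 1.44, that of tpz1 to ccq1 was 1.08 and 0.95, and that of rap1 to poz1 was 0.59 and 0.46. The genes of both DNA-binding subunits thus stood apart from those of the inner subunits with the Atf1 label. No test of these ratios is possible with 1 pooled value per group, and the overlaps above bear on pot1, tpz1 and poz1.

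**Figure D2:**
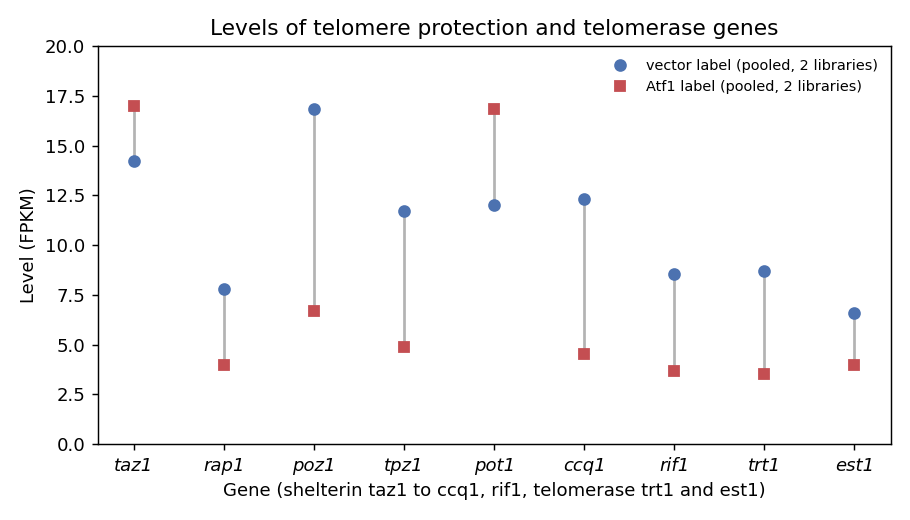
Level (FPKM, linear axis) of the 9 genes with the Atf1 label (squares) and the vector label (circles). Each point is the authors' pooled value of 2 libraries, with no error bar, and grey lines join both values of a gene. With the Atf1 label taz1 (17.0) and pot1 (16.9) stand above the other 7, which lie between 3.54 and 6.70 FPKM.

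The length regulator gene rif1 (SPAC6F6.17, chromosome I 2766283-2773500) was at 3.69 and 8.54 FPKM. It was 2.31-fold lower with the Atf1 label, a difference of -1.02 without a call (p = 0.202, q = 0.997 in the authors' deposited table). In ASM294v3 rif1 and tpz1 are neighbours that are read away from each other, with 368 bases between their starts, and both were lower by a similar amount (-1.02 and -1.11). In its locus, ppk6 was at 11.2 and 18.8 FPKM and the antisense RNA rif1-antisense-1 at 6.69 and 9.64 FPKM. Together they overlap 33.3% of rif1.

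The telomerase catalytic subunit gene trt1 (SPBC29A3.14c, chromosome II 2062472-2066165) was at 3.54 and 8.71 FPKM. It is the only one of the 9 alone in its locus, and no gene of the table overlaps it in ASM294v3. It was the lowest of the 9 with the Atf1 label and the sixth with the vector label. The 2.46-fold lower level had the smallest p of the 9 genes, 0.0314, and was not called after adjustment (q = 0.547 in the authors' deposited table). Its difference was -1.10, and 10.7% of tested protein-coding genes had a lower one.

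The telomerase subunit gene est1 (SPBC2D10.13, chromosome II 2988592-2994929) was at 4.0 and 6.59 FPKM, and was the lowest of the 9 with the vector label. The difference of -0.60 was the smallest of the 7 genes that were lower (p = 0.474, q = 0.997 in the authors' deposited table). The myosin gene myo51 in the same locus was at 4.07 and 5.86 FPKM. The ratio of trt1 to est1 was 0.88 and 1.32.

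The telomerase RNA gene ter1 (SPNCRNA.214) was at 14.1 and 21.8 FPKM, a difference of -0.60 without a call. Its locus holds 8 genes, so the value is uncertain. The stretch of ter1 that matches the reverse complement of the telomere repeat core is shown because it links the RNA to the sequence that Taz1 and Pot1 bind. It lies at chrI:3085777-3085806 of ASM294v3, minus strand, bases 217 to 246 of the annotated gene, is given as DNA, and the capitals mark GTAACC, the reverse complement of the repeat core GGTTAC.
ter1: gtactgcttcgtGTAACCgtactcttcaac

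The promoters of the 9 genes were searched because the study concerns Atf1, which binds the core TGACGT of the cAMP response element. Windows were the 250 bases before each annotated start in ASM294v3 (RefSeq annotation), on both strands. The core TGACGT was in 0 of 9 windows, against 5.52% of 5113 nuclear protein-coding genes, and the full element TGACGTCA was in 0 of 9, against 0.274%. With 500 bases, a choice made after the data were seen, TGACGT was in 1 of 9, that of taz1, against 8.14%. These letters lie 447 to 452 bases before the start of taz1. That place is within the ASM294v2 locus that taz1 shares with mug74 and mug74-antisense-1. A match is a description and shows no binding, and no match says only that these letters are not in the window.

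Motifs of other regulators were in few of the windows. The MluI cell cycle box ACGCGT, bound by the G1/S factor MBF, was in that of ccq1 alone, against 2.64% of promoters. The forkhead motif GTAAACA was in those of ccq1 and rif1, against 14.8%. The telomere repeat core GGTTAC was in that of trt1 (6.06% of promoters), and TTAGGG, the vertebrate telomere repeat unit, in those of trt1 and est1 (7.02%). In the authors' build ASM294v2 the locus of trt1 runs to 2066165, past the start in ASM294v3. The GGTTAC of trt1 thus lies inside that locus. With 500 bases GTAAACA was also in the windows of taz1 and tpz1 (24.4% of promoters), and GGTTAC also in those of taz1 and rif1 (10.7%). The starts of tpz1 and rif1 are 368 bases apart, so their windows overlap. The GTAAACA 332 to 338 bases before tpz1 is the same site as that 31 to 37 bases before rif1. The GGTTAC of rif1, 449 to 454 bases before its start, lies beyond that gap, within tpz1. The sequences are shown on the strand of their gene, for ccq1 since it had the largest difference and for taz1, trt1 and est1 around the match. They lie in ASM294v3 at chrIII:1485890-1486074, plus strand, for ccq1, at chrI:3093695-3093724, minus strand, for taz1, at chrII:2066111-2066140, minus strand, for trt1 and at chrII:2988526-2988555, plus strand, for est1. Capitals mark the cell cycle box and the forkhead motif (either strand) in ccq1, the Atf1 core in taz1, the telomere repeat core in trt1 and the vertebrate repeat unit in est1.
ccq1: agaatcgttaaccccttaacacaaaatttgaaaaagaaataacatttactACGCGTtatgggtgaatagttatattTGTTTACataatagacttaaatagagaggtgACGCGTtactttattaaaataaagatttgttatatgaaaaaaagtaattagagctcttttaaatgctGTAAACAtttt
taz1: cttgtttcagttTGACGTtcttgttgaata
trt1: agttatgcttaatGGTTACttgtaacttgc
est1: ttgtcattacgcTTAGGGtttttgcataag
The ccq1 stretch ends 66 bases before the annotated start and holds ACGCGT at 2 places and GTAAACA at 2 places, the first of these on the other strand.

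Neighbouring genes went in both directions. Among 78 other tested genes in the same loci or in loci that reach within 5 kb of the 9, 49 were below 0 and 29 above, with a median of -0.40. One of them, a 5S rRNA gene, was listed at 0 with the vector label, and without it there were 77, 28 above 0, with a median of -0.41. Of all tested genes 55.4% were below 0, and of protein-coding ones 60.1%, with medians of -0.11 and -0.22. Around poz1 the 6 neighbours had a median of 0.64, and the nearest on its sides, coq9 and its3, differed by 1.28 and -0.61. That 5S rRNA gene is the nearest before rap1, at 217 FPKM with the Atf1 label, and was not called (q = 0.928 in the authors' deposited table). Beyond it zuo1 differed by -0.62, and lam2, nearest on the other side, by 0.69. Around est1, 9 of 11 neighbours were below 0, with rhp23 at -0.70 and pth1 at -1.25 nearest.

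The rest of the neighbourhoods gave mixed values as well. The antisense RNA pdp1-antisense-1 and rsm23, nearest to trt1, differed by -0.41 and -0.81. The 17 neighbours of taz1 had a median of -0.58, with nse2 at -0.21 and med13 at -0.52 nearest, while taz1 was at 0.24. Beside pot1, SPAC26H5.04-antisense-1 differed by 0.32 and bgl2 by 0.37. The gene etf2 after rif1 differed by 0.53, and SPAC6F6.19-antisense-1 before tpz1 by -1.33. On the sides of ccq1 stood srp54, with a difference of 0.43, and pfl4-antisense-1, with 2.56. The adhesin gene pfl4, in that antisense RNA's locus, was the only called gene among the 78, higher with the Atf1 label at 64.9 against 7.16 FPKM (q = 0.00809 in the authors' deposited table). Of all tested genes 1.95% were called, 1.82% higher with the Atf1 label.

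**Figure D3:**
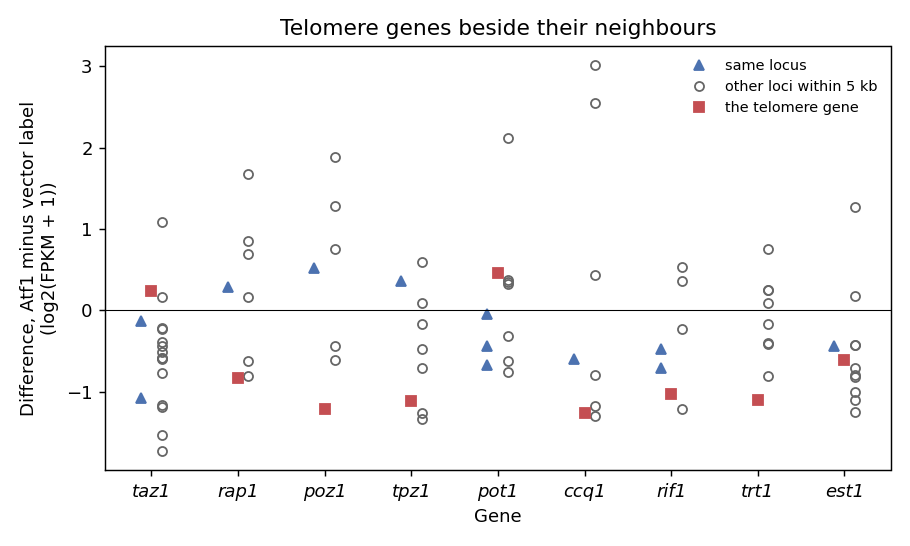
Difference between the groups (Atf1 minus vector label, log2(FPKM + 1)) of each telomere gene (red squares), of genes in its own locus (blue triangles) and of genes in other loci that reach within 5 kb (open circles). Tested genes with a value above 0 in both groups are drawn, which leaves out the 5S rRNA gene beside rap1. The 2 points at 2.56 and 3.01 beside ccq1 are pfl4-antisense-1 and pfl4.

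Other genes of telomere biology were followed in 11 lists, chosen from textbook knowledge with 80 symbols, of which 78 were found and tested. Of the 78, 66 were below 0 and 12 above, with a median of -0.59, beside the -0.11 of all tested genes. The 1405 protein-coding genes with means of 5.29 to 15.6 FPKM had a median of -0.53, with 76.8% below 0. The lists were not matched for level, and the part of level in their medians was not tested. The authors' deposited table calls 1 of 78, tlh2, and 8 had an unadjusted p under 0.05, beside 1.95% and 10.8% of all tested genes. A locus with other genes holds 52 of the 78, and their values are uncertain.

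The list of telomerase RNA processing and assembly had 15 tested members, 10 below 0 and 5 above, with a median of -0.48. The highest was lsm6, of the Lsm ring that guards the end of mature ter1 RNA, at 296 and 132 FPKM (1.16, unadjusted p = 0.0218, q = 0.462 in the authors' deposited table), followed by the Sm gene smd3 (0.70). The lowest were the Lsm gene lsm8, at 10.5 and 25.0 FPKM (-1.18), and tgs1 (-1.16), for the enzyme that gives ter1 RNA its trimethyl cap. The symbols thc1 and bmc1 were not analysed here. Both lsm6 and lsm8 are alone in their loci, and neither was called.

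The Stn1-Ten1 complex caps the overhang and works with DNA polymerase alpha, which fills in the other strand. All 6 genes of that list were below 0, with a median of -0.60. The polymerase subunit gene pol1 was at 1.83 and 4.86 FPKM (-1.05), and spb70 (-0.68), ten1 (-0.47) and spp1 (-0.43) were closer to 0. Replication protein A competes for the same single-stranded DNA. Its 3 genes were all below 0, and the largest subunit gene ssb1, alone in its locus, was at 26.4 and 56.6 FPKM (-1.07, unadjusted p = 0.0276, q = 0.515 in the authors' deposited table), followed by ssb3 (-0.74) and ssb2 (-0.49).

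Genes for Ku, the MRN complex and end resection, which act on breaks and on unprotected telomeres, had a median of -0.80 over 11, with 10 below 0. The MRN gene rad50 was at 1.68 and 6.81 FPKM (-1.54, unadjusted p = 0.0238, q = 0.483 in the authors' deposited table) and nbs1 at 6.80 and 15.3 FPKM (-1.07). The resection factor gene ctp1 was at 25.1 and 29.6 FPKM (-0.23). Checkpoint kinases and sensors, among them Tel1 and Rad3, whose phosphorylation of Ccq1 lets it bind Est1, were below 0 in 10 of 10, with a median of -0.81. In this list rad26 (-1.33) and rad3 (-1.23) were lowest, and rad17 (-0.41) and tel1 (-0.46) highest, where rad3 was at 0.96 and 3.60 FPKM and tel1 at 1.84 and 2.90 FPKM.

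The partners of Rif1 in replication timing were below 0 in 4 of 4, with a median of -0.64. The kinase gene hsk1, whose product fires origins, was at 5.89 and 12.1 FPKM (-0.93), and its regulatory subunit gene dfp1 differed by -0.68. The phosphatase genes sds21 and dis2 differed by -0.60 and -0.09. Genes that tie telomeres to the nuclear envelope and form the meiotic bouquet had a median of -0.40 over 10, 7 of them below 0. There kms1 (-1.26) and lem2 (-1.09) were lowest and bqt2 (0.18) and bqt3 (0.17) highest. The Myb-type genes teb1 and tbf1, whose products bind telomere-like repeats, differed by -0.44 and -0.42. The SUMO list was below 0 in 6 of 6, with a median of -0.69, from ulp2 (-1.14) and pli1 (-0.97) to hus5 (-0.39) and nse2 (-0.21). SUMO on Tpz1 limits telomerase.

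Silencing genes that act next to telomeres were below 0 in 8 of 9, with a median of -0.48. Ccq1 also carries the SHREC silencing complex to telomeres. The shugoshin gene sgo2, whose product marks subtelomeric chromatin, was at 2.51 and 13.3 FPKM (-2.03), the largest difference of the 78 genes in the lower direction, in a locus of 6 genes. The heterochromatin protein gene swi6, alone in its locus, was at 18.04 and 45.9 FPKM (-1.30). Unadjusted p were 0.0350 and 0.0114, with q = 0.574 and q = 0.335, in the authors' deposited table. The SHREC gene mit1 (0.04) and chp2 (-0.13) were nearest to 0.

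The subtelomeric RecQ-type helicase genes tlh1 (SPAC212.11, chromosome I 1-5662) and tlh2 (SPBCPT2R1.08c, chromosome II 4526885-4532899) were the only list with a median above 0, at 1.94. These genes lie next to the telomere repeats and are silenced in wild-type fission yeast with the help of Taz1 and Rap1. Whether that silencing bears on the values here was not tested. The level of tlh2 rose from 0.66 FPKM with the vector label to 4.84 FPKM with the Atf1 label, 7.28-fold, and was called (q = 0.0289 in the authors' deposited table). For tlh1 the values were 5.41 and 0.52 FPKM, 10.4-fold higher with the Atf1 label, without a call (q = 0.118 in the authors' deposited table). Both vector values are under 1 FPKM, so both genes pass the filter on the mean only through the Atf1 label. Their fold values thus rest on very low levels. The list's median was 2.92 and 0.86 with pseudocounts of 0.1 and 5. The genes are 99.98% identical over 5662 bases in ASM294v3, so reads cannot be told apart between them and their values are uncertain. The median of this list therefore does not rest on separate measurements.

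**Figure D4:**
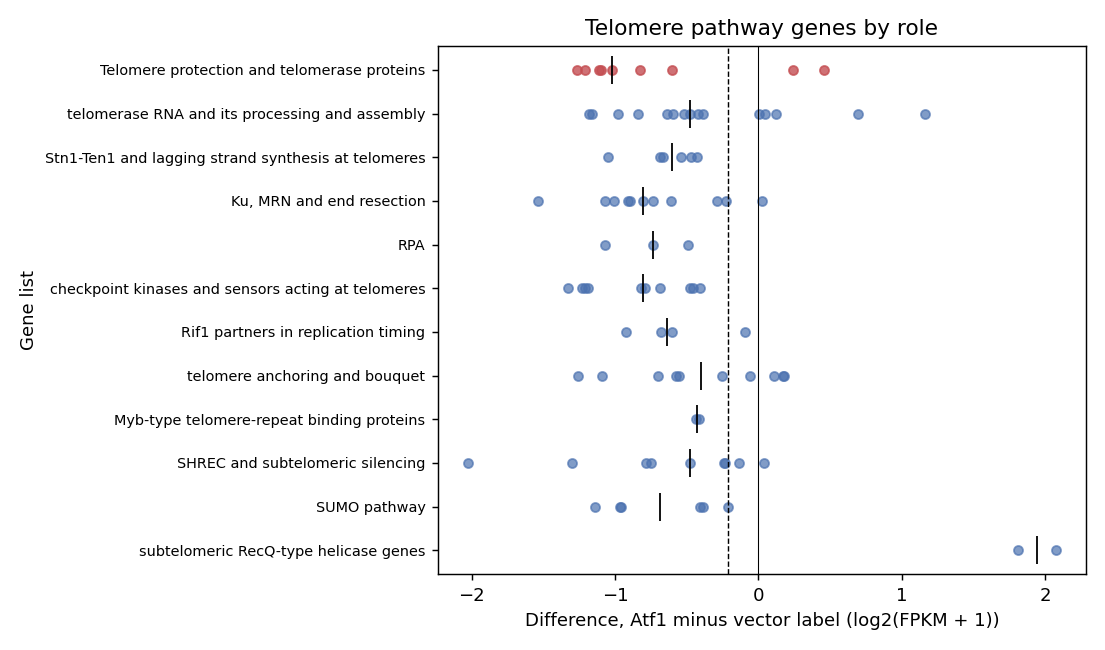
Difference between the groups (Atf1 minus vector label, log2(FPKM + 1)) of the 9 telomere genes (red) and of the tested genes of 11 other lists (blue), 1 point per gene, with a black tick at each list's median. The dashed line is the median of tested protein-coding genes at all levels, -0.22. Those in the range of the means of the 9 genes had a median of -0.53. The medians of 10 of the 11 lists lie below the dashed line, and tlh1 and tlh2 lie near 2.

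The genes whose 2 levels were most like those of ccq1, the member with the largest difference, were taken as the nearest of the tested protein-coding genes by distance on the log2(FPKM + 1) levels of both groups. They were SPCC1919.02 at a distance of 0.033, the checkpoint sensor gene hus1 at 0.038 and the tRNA exporter gene los1 at 0.053. Levels of hus1 were 4.68 and 12.1 FPKM. With only 2 pooled values per gene such likeness is a description of level.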

How the data were processed

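The authors deposited FPKM, 1 pooled value per group and gene, per the file headers. The build ASM294v2 and the tools HISAT2 and Cuffdiff stand, unversioned, per the submitters' processing notes. The p-values, q-values and the test score of their comparison are deposited too, per the file headers; the scaling between groups and the number of tests adjusted over are not stated there. FPKM were identical in both tables for all 7092 genes. A stranded kit was used, per the labels' protocols, but no source says that strand was used in counting, so a gene and its antisense partner may share reads.

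Differences are log2(FPKM + 1) for genes with status OK and a mean of at least 1 FPKM (6219 genes). The members and lists were chosen with earlier results of these data known. No test was computed, since the files hold no values per library. Named were the 9 members, atf1, pcr1 and ura4 as a check of the labels, and in each list the called genes and the 2 highest and 2 lowest, of which 1 gene is not reported here. Of their neighbours, called genes and the nearest on each side were named (for rap1 also the gene beyond a 5S rRNA gene whose ID has no match in ASM294v3), and by likeness the 3 genes nearest to the member with the largest difference. The order of neighbours, overlaps, biotypes (6746 genes matched) and sequences come from ASM294v3 with RefSeq annotation. Of 2109 genes alone in their locus, 99.8% share a start or end with it. BLAST+ 2.17.0 looked for near-identical copies at 95% identity over 50% of a gene. It found tlh1 and tlh2, and none for the members or ter1. Scripts ran in Python 3.11.15 with numpy 2.4.6 and pandas 2.3.3, and plots in matplotlib 3.10.9. Median-of-ratios scaling was checked on simulated data, and quantile normalization there for unchanged genes only. Scaling to equal FPKM totals had no such check. Alternatives were other pseudocounts, filters, scalings and backgrounds.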

Additional observations from a re-analysis of the deposited data

How the results depend on the processing

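No paired analysis was possible because both libraries of a group are pooled in 1 value, and leaving out each library was not run for that reason. The order of levels among members alone in their locus was not run, since that is trt1 only. The median difference of the 9 genes (-1.02) was -1.19 and -0.64 with pseudocounts of 0.1 and 5, -0.93 after quantile normalization, -0.92 after median-of-ratios scaling and -1.58 at equal FPKM totals. It was -1.10 for trt1, the only member alone in its locus. With a mean of at least 10 FPKM it turned to 0.24, since only 3 of the 9 genes (taz1, pot1 and poz1) pass that filter, and 1 of them was below 0 and below the median of tested genes. Members below that median stayed at 7 under all other settings run. With equal FPKM totals taz1 turned to -0.38 and pot1 to -0.16, and all 9 were below 0. Median-of-ratios scaling took the median of all tested genes from -0.11 to 0.0010, and equal totals took it to -0.73. Of 57 member differences under these alternatives 55 kept their sign, but many of the 57 could not turn. A pseudocount or a filter cannot change the sign of a single gene's difference. Only the scalings could, and the 2 that turned did so at equal FPKM totals. Of 85 list medians 84 kept their sign, where pseudocounts again leave the sign of each gene as it was. The other, of telomere anchoring and bouquet genes, was 0.17 over genes alone in their locus, where the cause was not tested. The 113 and 8 genes called higher and lower were 72 and 3 at q under 0.01, by the stricter threshold. Without counts, the precision of levels of a few FPKM is unknown.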
